A study of Mus musculus with 4 samples.

Results

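Nuclear genes for the subunits of oxidative phosphorylation were examined in newborn mouse skin with and without loricrin, the major protein of the cornified envelope. They were found by symbol, as probe sets that name 1 gene beginning with Nduf, Uqcr, Atp5 or Sdh, or with Cox4, Cox5, Cox6, Cox7 or Cox8. These prefixes found 80 of the 13674 genes named on 2 array types, and 69 of the 80 encode subunits: 30 of complex I, 4 of complex II, 7 of complex III, 14 of complex IV and 14 of complex V. The first array type measured 68 of these subunit genes among 8251 named genes and the second measured 9 among 7542, with 8 on both. The other 11 genes encode assembly factors of complexes I and II and the supercomplex factor Cox7a2l, and are given separately.

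The 2 groups were loricrin knockout and wildtype mice, both of strain FVB/N, and in both whole skin was taken on postnatal day 0. Total RNA was hybridised to 4 Affymetrix arrays, 1 per genotype on each of the 2 array types. The labels give neither the construction of the knockout allele nor the number of animals behind an array, and they do not say whether the arrays titled as replicates held RNA of other animals. Each gene took the value of its probe set with the highest mean signal. Signals below a floor, 77.6 on the first and 133 on the second type, were raised to it, and the log2 ratio of knockout to wildtype was then computed. With 1 array per genotype and type, a ratio on 1 type has no replicate and no test. In whole skin, fewer cells of a type and less RNA per cell cannot be told apart.

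Oxidative phosphorylation takes place in the inner mitochondrial membrane. Complexes I and II pass electrons from NADH and succinate to ubiquinone, complex III passes them to cytochrome c and complex IV to oxygen, and complexes I, III and IV pump protons. Complex V, the ATP synthase, lets the protons return through its membrane part, called Fo, and makes ATP on its catalytic head, called F1. Most subunits are encoded in the nucleus, and their genes are known targets of the transcription factors NRF-1, GABP (also called NRF-2) and YY1. In skin, mitochondria serve the living layers of the epidermis, the dermis and the follicles, and are removed as keratinocytes cornify.

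Promoters were read for motifs of these 3 factors, the regulatory feature for which the genes are best known. Windows from 250 bases before to 50 after the start site were listed by RefSeq (GRCm38.p6) for 56 of the 69 subunit genes. The letters GCGCATGCG, from the core of the NRF-1 site, occurred on either strand in 7 of these 56 (12.5%) and in 1.95% of all 27025 genes with such a window. The GABP motif CCGGAAG occurred on either strand in 15 (26.8%, against 9.93% of all), and the YY1 motif AANATGGCG in 8 (14.3%, against 2.76%). Each motif was searched by itself and a gene counted once, and the NRF-1 letters overlap their own reverse complement. The letters were shortened after a first search with longer forms. The 27025 genes were not limited to those on the arrays or expressed in skin, and the shares were not tested. A match describes letters only, and no binding was measured here. The 7 NRF-1 matches are printed 5′ to 3′ on the gene's strand with the match in capitals, because they show the shared letters in genes with ratios on both sides of 0.
Atp5g2: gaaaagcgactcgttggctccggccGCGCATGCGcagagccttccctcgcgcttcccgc
Atp5k: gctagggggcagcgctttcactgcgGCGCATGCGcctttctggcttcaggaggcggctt
Atp5l: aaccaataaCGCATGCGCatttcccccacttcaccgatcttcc
Cox6a1: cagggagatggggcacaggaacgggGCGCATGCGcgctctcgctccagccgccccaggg
Ndufa8: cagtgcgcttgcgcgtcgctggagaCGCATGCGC
Uqcr11: atcgccttcaCGCATGCGCtatacgtctg
Uqcrc1: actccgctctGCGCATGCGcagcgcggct
In this order they lie at chr15:102671056-102671114, chr5:108434416-108434474, chr9:44920950-44920992, chr5:115349087-115349145, chr2:36049339-36049372, chr10:80406808-80406836 and chr9:108936668-108936696, all on the minus strand except Uqcrc1. The match begins 42, 50, 241, 162, 9 and 5 bases before the annotated start in Atp5g2, Atp5k, Atp5l, Cox6a1, Ndufa8 and Uqcr11, and at transcribed base 31 in Uqcrc1. On the first array type the log2 ratios of the 7 genes, in the same order, were -0.09, -0.34, -0.43, -0.20, 0.04, -0.42 and 0.32.

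The arrays were checked against their labels. On the first type, the brighter loricrin probe set gave 2013 in knockout skin against 41224 in wildtype skin; no loricrin probe set of the second type is listed here. The arrays also differed in sex: Xist, the RNA of the inactive X chromosome, read 857 and 24.7 on the first type and the Y-linked Eif2s3y 42.7 and 1071. For Kdm5d, also Y-linked, the second type gave 12.2 and 976, so genotype and sex cannot be told apart. Of 14 dermal fibroblast marker genes on the first type, 10 were at least 2-fold lower in knockout, with summed signals of 5481 and 12994. Of 8 erythroid markers 3 were below the floor in both arrays; the sum of 5996 and 22041 came mostly from Hba-a1 (3792 and 15206) and Hbb-b2 (1643 and 6213), while Hbb-bh1 (1.37) and Klf1 (0.82) had log2 ratios above 0. The 12 keratinocyte markers other than loricrin summed to 94454 and 131871, with Trp63, a factor of the basal layer, the other way at 1906 and 913 (1.06). Among them Krt1 and Krt10 of the upper epidermis were measured, while Krt5 and Krt14 of the basal layer lay below the floor in both arrays. Probe sets differ in how strongly they bind, so this does not rank the levels of these genes. The second type listed 4 keratinocyte markers, all above the floor, 3 with a ratio below 0 and 1 above 0. They summed to 115178 and 126164. Of 24 markers of skeletal muscle, a tissue rich in mitochondria, 12 lay below the floor in both arrays, among them Acta1, Ckm and Mb. Of the others 8 had a ratio below 0, Pvalb (1390.0 and 1828) among them, and 4 above 0. Tnnt1, at 176 and 79.5 (1.14), was the 1 muscle marker past 2-fold. The muscle list summed to 3077 and 3650. Of 6 brown fat markers 3 lay below the floor in both arrays, Ucp1 and Fabp3 among them. Cidea read 307 and 202, while Dio2 went the other way at 81.8 and 112 (-0.45). The brown fat list summed to 570.2 and 514. On the second type 2 brown fat markers were listed, Fabp3 at 4975 and 4565 and Ppara below the floor. The part of tissue composition and of sex in the subunit ratios was not tested.

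On the first array type no subunit gene differed by 2-fold, and most ratios lay a little below 0. Of the 68 subunit genes, 45 had a ratio below 0, 17 above 0 and 6 read below the floor in both arrays. Their median log2 ratio was -0.15, and the single values ran from -0.77 for Atp5j to 0.59 for Cox6b1. Over all 8251 genes the median was 0.00, and 2880 lay below 0 and 3097 above. None of the 68 was at least 2-fold higher, where 0.836% of all genes were, and none at least 2-fold lower, where 1.38% were. At 1.5-fold, 1 was higher, against 4.44% of all genes, and 3 were lower, against 5.11%. The shares past these limits were thus no larger than over all genes.

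**Figure D1:**
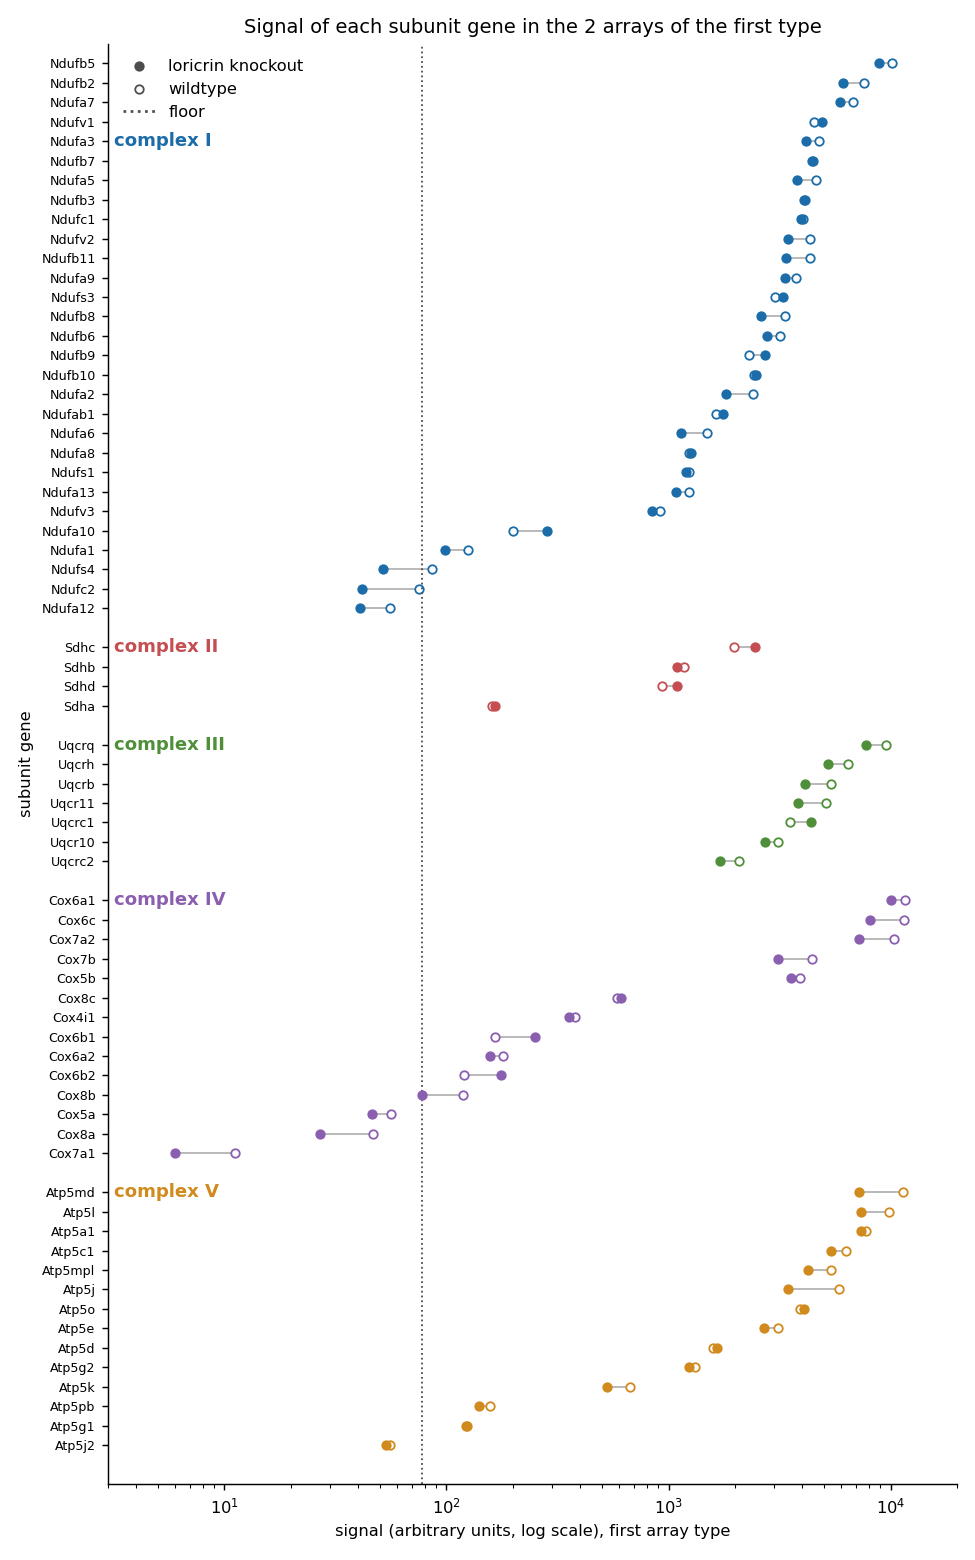
Signal of the 68 subunit genes of the first array type (log axis, arbitrary units) in loricrin knockout (filled) and wildtype (open), by complex, with the floor of 77.6 dotted. Points show signals before the floor was applied. The 2 arrays lie less than 2-fold apart for every gene, widest for Cox7a1 (5.98 and 11.1), below the floor. The knockout point is the lower one for 45 of the 62 genes with a ratio other than 0, and for the 6 genes below the floor in both arrays.

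The floor sets many ratios to exactly 0, so genes with both signals above it were also described. The 61 subunit genes of this kind had a median of -0.19 and 72.1% of them lay below 0. The 5403 genes of this kind on the array had a median of 0.03 and 46.9% below 0. A yardstick for single ratios came from the 1081 genes measured on both array types, whose ratios scattered between types with a standard deviation of 0.40 per ratio. By this measure 56 of the 68 subunit ratios, the 6 set to 0 by the floor included, were no larger than the spread between the types. Beyond it lay 9 on the lower side (13.2%, against 10.3% of all genes) and 3 on the higher side (4.41%, against 10.2%). The yardstick depends on signal: with the floor at the 60th percentile, which kept 570 brighter genes, the standard deviation was 0.31. Ratios between these 2 values lay beyond the smaller one only, and most of them were on the lower side. Examples are Ndufb8 (-0.36) and Uqcrb (-0.39) below 0 and Uqcrc1 (0.32) above 0.

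Complex I oxidises NADH and is the largest complex of the chain. Of its 29 genes on the first type, 19 had a ratio below 0 and 8 above 0, and the median was -0.14. Among its 4 catalytic core genes there, Ndufv1, the flavoprotein that receives electrons from NADH, read 4933 in knockout and 4521 in wildtype, which gives 0.13 as log2 ratio. Its iron-sulfur partner Ndufv2 read 3441 and 4343, a ratio of -0.34. The iron-sulfur protein Ndufs1 had a ratio of -0.05 and the core protein Ndufs3 of 0.12. The core genes thus lay on both sides of 0.

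The other 25 complex I genes on that type encode accessory subunits, which surround the core and are needed for its assembly and stability. Of these, 17 had a ratio below 0 and 6 above 0, and the median was -0.16. The 2 with the highest signal were Ndufb5, at 8877 in knockout and 10174 in wildtype (-0.20), and Ndufb2, at 6098 and 7591 (-0.32). Both encode subunits of the membrane arm. The lowest accessory ratio was that of Ndufa2, at 1810 and 2398 (-0.41), followed by Ndufa6 (-0.39) and Ndufb8 (-0.36). The highest was that of Ndufa10, at 282 and 199 (0.50), with Ndufb9 (0.24) next and Ndufab1, the mitochondrial acyl carrier protein, at 0.11. The membrane-arm genes Ndufb3, Ndufb7 and Ndufb10 and the intermembrane-space gene Ndufa8 lay between -0.01 and 0.04. In both arrays Ndufa12 and Ndufc2 lay below the floor. Ndufs4, an accessory subunit of the matrix arm, lay above it in wildtype only. Ndufa1 and Ndufb11, which are X-linked, had ratios of -0.34 and -0.35 in a comparison whose arrays also differ in sex.

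Complex II, succinate dehydrogenase, is also an enzyme of the tricarboxylic acid cycle. Its 4 genes had a median ratio of 0.13, and 3 of 4 lay above 0. The membrane anchor Sdhc read 2439 in knockout and 1977 in wildtype, a ratio of 0.30, and the second anchor Sdhd read 1088 and 936, a ratio of 0.22. The iron-sulfur subunit Sdhb read 1092 and 1179, a ratio of -0.11. The flavoprotein Sdha, which oxidises succinate, read 165 and 160, a ratio of 0.05. All these ratios were within the spread of 0.40 between types. Complex II was the 1 complex with a first-type median above 0 in the setting used, a difference between complexes that was not tested. The second type held 2 of the 4 genes, Sdhb and Sdhc, which both lay below 0, with a median of -0.47. Between the types only Sdhc changed side. Its second-type signals, 139 and 206, lay near the floor of 133 and came from a probe set marked for shared sequence.

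Complex III, the cytochrome bc1 complex, had a median of -0.30, with 6 of 7 genes below 0. This was the lowest of the 5 complexes in the setting used, while under spike-in scaling complex IV (0.33) lay below complex III (0.39). Its 5 small subunits all lay below 0, a grouping made after their values were seen. Uqcrq read 7741 in knockout and 9576 in wildtype (-0.31), and the hinge protein Uqcrh 5222 and 6413 (-0.30). Uqcr11 was lowest, at 3825 and 5131 (-0.42), followed by Uqcrb, the ubiquinone-binding protein (-0.39), and Uqcr10 (-0.20). The 2 large core proteins, which face the matrix, went apart. Uqcrc1 read 4387 and 3515 (0.32), while Uqcrc2 read 1697 and 2081 (-0.29).

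Complex IV, cytochrome c oxidase, has a catalytic core encoded by mitochondrial DNA, of which no gene is listed on either array type here, and a set of nuclear-encoded subunits around it. Of 14 nuclear genes, 8 had a ratio below 0, 3 above 0 and 3 were below the floor, with a median of -0.11. Among the widely expressed genes, Cox7a2 read 7198 in knockout and 10357 in wildtype (-0.53), the X-linked Cox7b 3107 and 4446 (-0.52), and Cox6c 8087 and 11452 (-0.50). These 3 lay close together and beyond the spread between types, but Cox6c was at -0.24 after quantile normalization and at 0.00 as the median over its probe sets. Cox6a1, with the highest signal, read 10067 and 11589 (-0.20), and Cox5b 3543 and 3923 (-0.15). Cox4i1, a regulatory subunit, read 357 and 378 (-0.08). Cox6b1 went the other way, at 249 and 166 (0.59), and was the 1 subunit gene past 1.5-fold higher. Raising the floor to the 60th percentile left this ratio at 0.07.

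Several complex IV subunits have isoforms tied to particular tissues, and these were looked at one by one. Levels of different genes were not compared, since probe sets differ in how strongly they bind. Of the heart and skeletal muscle isoforms, Cox7a1 read 5.98 in knockout and 11.1 in wildtype, below the floor. Cox8b read 77.9 and 118 (-0.60), with the knockout just above the floor, and its ratio was 0.00 under the higher floor and without probe sets marked for shared sequence. Cox6a2 read 156 and 179 (-0.20), the same ratio as its widely expressed counterpart Cox6a1. Cox8a, the common counterpart of Cox8b, and Cox5a were below the floor. Of the isoforms known from testis, Cox6b2 read 176 and 119.9 (0.55) and Cox8c 611 and 586 (0.06). The Cox6b2 ratio rests on 1 of its 3 probe sets, since the median over them was 0.00.

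**Figure D2:**
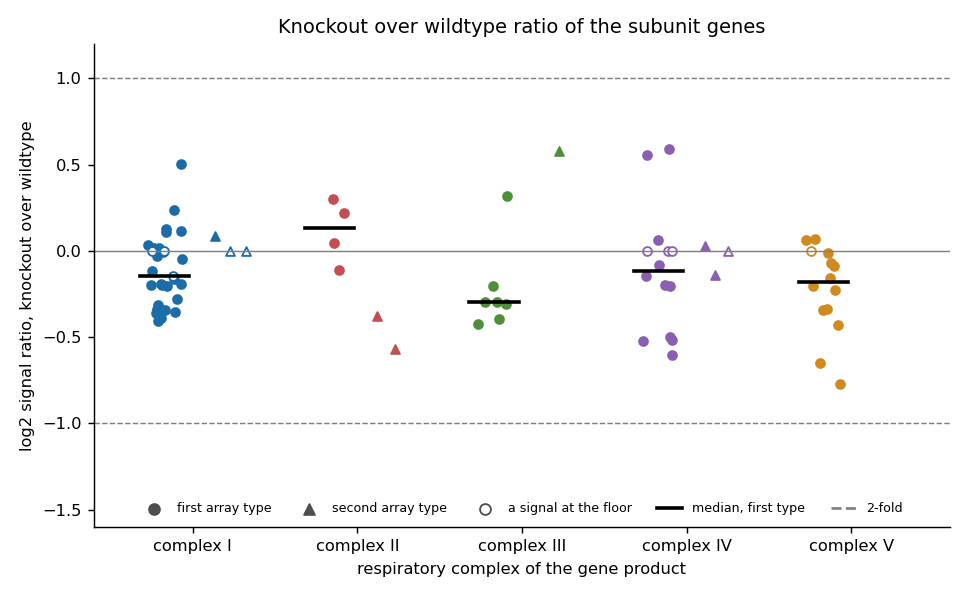
Log2 ratio of knockout over wildtype for each subunit gene by complex, on the first type (circles, bar at the median) and the second (triangles), open where a signal lies at the floor. All points lie inside the dashed 2-fold lines, and the first-type medians run from -0.30 for complex III to 0.13 for complex II.

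Complex V held the subunit genes with the lowest ratios of the first type. Of its 14 genes, 11 had a ratio below 0 and 2 above 0, and the median was -0.18. Atp5j, the coupling factor in the stalk that holds the head in place, read 3436 in knockout and 5878 in wildtype (-0.77, 1.71-fold). Atp5md, a small membrane subunit, read 7215 and 11321 (-0.65, 1.57-fold). Together with Cox8b these were the 3 subunit genes at least 1.5-fold lower. Other small membrane subunits followed, with Atp5l at 7322 and 9864 (-0.43), Atp5mpl at 4251 and 5379 (-0.34) and Atp5k at 526 and 668 (-0.34), while Atp5j2 was below the floor. All 4 measured small membrane subunits thus lay below 0 on their probe sets with the highest signal. A dim second probe set of Atp5l stood at 0.33, and Atp5md was read from a probe set marked for shared sequence.

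The catalytic head of complex V lay nearer to 0. Its alpha subunit Atp5a1 read 7376 in knockout and 7744 in wildtype (-0.07). The gamma subunit Atp5c1, the rotating shaft, had a ratio of -0.23 and the epsilon subunit Atp5e of -0.20. The delta subunit Atp5d stood at 0.07. Both genes of the proton-carrying c ring were close to 0, Atp5g1 at -0.01 and Atp5g2 at -0.09. In the stalk, Atp5o stood at 0.06 and Atp5pb at -0.16, away from Atp5j.

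The brighter subunit genes tended to have the lower ratios. Across the 61 genes with both signals above the floor, log2 ratio and log2 mean signal had a Pearson correlation of -0.36 and a Spearman correlation of -0.40, a description across genes that share the same 2 arrays. Across all 5403 such genes the values were -0.03 and 0.01. Subunit genes were bright, with 48 of 68 above the 80th percentile of signal of all named genes. Of these 48, 36 had a ratio below 0 and the median was -0.20, while all 1650 genes above that percentile had a median of 0.02. Above the 95th percentile of signal all 413 genes had a median of -0.17 and 71.4% lay below 0, and the 29 subunit genes there had a median of -0.28 with 25 below 0. Between the 90th and 95th percentiles the medians were 0.04 for all genes and -0.19 for 9 subunit genes. The part of signal strength in the subunit ratios was not separated further.

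**Figure D3:**
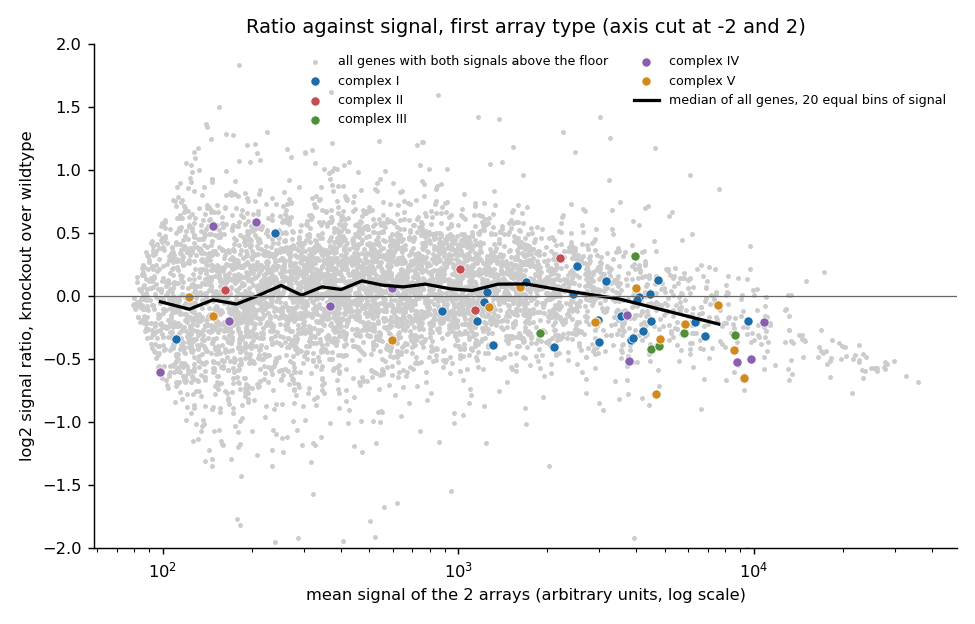
Log2 ratio against mean signal (log axis, arbitrary units) on the first array type for genes with both signals above the floor, grey for all 5403 and coloured by complex for the 61 subunit genes, with the running median of all genes in black. The running median drops below 0 at the brightest signals, where many subunit genes lie.

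The second array type gave ratios for 6 subunit genes, and 3 more read below the floor in both arrays (Ndufab1, Ndufs3 and Cox6b1). Of all 9, 3 had a ratio below 0 and 3 above 0, and the median was 0.00. None was at least 2-fold higher or lower, where 1.67% and 2.12% of all genes on the type were, and none at least 1.5-fold, where 6.76% were higher and 7.94% lower. Ndufs7, the iron-sulfur core subunit of complex I next to ubiquinone, was measured on this type alone and read 6848 in knockout and 6451 in wildtype (0.09). The lowest ratio was that of Sdhc, at 139 and 206 (-0.57), near the floor of 133. Sdhb read 1847 and 2395 (-0.37). The highest was that of Uqcrc1, at 370.4 and 248 (0.58). Cox4i1 read 1867 and 2054 (-0.14), and Cox6a1 885 and 867 (0.03). When probe sets marked for shared sequence were left out, 2 of the 6 measured genes remained.

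For 5 subunit genes both types gave a ratio, so the comparison could be tested over all 4 arrays with limma, fitted on 1081 genes with the array type as a block. None of the 5 passed an adjusted p of 0.05, where 0.0925% of all genes did, and none had an unadjusted p below it, against 110 of the 1081. Uqcrc1 came nearest, with ratios of 0.32 and 0.58, a mean log2 ratio of 0.45 (SE 0.24) and a limma adjusted p of 0.525, higher in knockout on 2 of 2 types. Sdhb was lower on both, with a mean of -0.24 (SE 0.24, limma adjusted p = 0.812), and so was Cox4i1, with a mean of -0.11 (SE 0.24, limma adjusted p = 0.931). Sdhc had opposite signs, 0.30 and -0.57, and a mean of -0.13 (SE 0.26, limma adjusted p = 0.931). Cox6a1 had ratios of -0.20 and 0.03 and a mean of -0.09 (SE 0.24, limma adjusted p = 0.937). These p-values measure agreement between array types, not spread between animals. On the second type Cox4i1, Cox6a1, Sdhc and Uqcrc1 were read from probe sets marked for shared sequence. With the floor at the 60th percentile limma kept 3 subunit genes, and Sdhc and Uqcrc1 were not among them.

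Where a subunit gene had several probe sets above the floor on the first type, their ratios mostly differed by less than the spread of 0.40 between types. Differences below it were those of Atp5c1 (-0.23 and -0.20), Ndufv2 (-0.39 and -0.34), Ndufb2 (-0.46 and -0.32), Cox4i1 (-0.08 and 0.06) and Ndufa3 (-0.20 and 0.03). Those of Cox4i1 and Ndufa3 lay on both sides of 0. The 3 probe sets of Atp5d ran from -0.02 to 0.46. Those of Atp5l differed most, at -0.43 and 0.33, the latter from a dim probe set. A single ratio of this size therefore depends on the probe set read.

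A further 13 probe sets matched the prefixes but name several genes, often a pseudogene, and were not counted as members. The 2 that name Cox7c, a complex IV subunit, with the predicted gene Gm12338 read 17178 in knockout and 25448 in wildtype (-0.57) and 5538 and 8906 (-0.69). One that names Ndufb4 with 2 gene copies stood at -0.15 on the first type, and another at 924 and 1684 (-0.87) on the second. The probe set shared by Atp5c1 and its pseudogene stood at 0.36, opposite to those of Atp5c1 alone. The 2 shared by Ndufs6 and Ndufs6b stood at -0.05 and 0.24 on the first type.

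The 11 genes that the prefixes found beside the subunits, 10 of them assembly factors, which build the complexes without staying in them, showed no 2-fold difference either. On the first type Sdhaf2, which attaches flavin to Sdha, stood at 0.38, Ndufaf1 at 0.35, Sdhaf1 at -0.04 and Ndufaf4 at -0.27, and Cox7a2l, which joins complexes III and IV, at -0.12. On the second type Ndufaf2 stood at 0.68, at 238 in knockout and 149 in wildtype. Ndufaf3 stood at -0.01, Sdhaf4 at -0.06, Ndufaf8 at -0.31, Ndufaf5 at -0.33, Ndufaf4 at -0.40 and Sdhaf3 at -0.51. Ndufaf4 lay below 0 on both types, with a mean of -0.34 (SE 0.24, limma adjusted p = 0.642).

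Lists of other genes of mitochondrial energy metabolism had first-type medians nearer to 0. The tricarboxylic acid cycle list had 17 genes, 6 below 0 and 9 above, and a median of 0.03, with malate dehydrogenase Mdh2 at 0.20 and citrate synthase Cs at 0.26. The 11 other assembly factors of the chain had a median of 0.02, with Higd2a at -0.02 and the copper chaperone Cox17 at -0.30. The 15 electron carriers and related proteins had a median of 0.00, with cytochrome c1 (Cyc1), the haem subunit of complex III, at 7440 in knockout and 8631 in wildtype (-0.21) and Etfa at -0.24. The 14 carriers, porins and uncoupling proteins had a median of 0.00, with the ATP synthase inhibitor Atpif1 at 5651 and 7528 (-0.41) and the mitochondrial creatine kinase Ckmt1 at 0.28. The 19 import and chaperone genes had a median of 0.04, with Timm23 at -0.04 and Hspd1 at -0.12. None of the genes on these lists was past 2-fold on the first type, where 0.836% of all genes were higher and 1.38% lower. The lists also differed in signal. The median signal percentile was 93.2 for the subunits, 86.4 for the tricarboxylic acid cycle, 73.4 for the other assembly factors and 60.8 for the electron carriers. For the biogenesis regulators described next it was 48.1, and for glycolysis 93.6. The part of signal in the distance between list medians was not tested.

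Regulators of mitochondrial biogenesis gave no common shift. The 12 on the first type had a median of 0.00, with the transcription factor Yy1 at 0.49 and the mitochondrial transcription factor Tfb2m at -0.63. Gabpa, the DNA-binding part of GABP, stood at 0.12. Ppargc1a, the coactivator, and Tfam, which packages mitochondrial DNA, lay below the floor on both arrays of that type. On the second type Nrf1 read 1212 in knockout and 1003 in wildtype (0.27), and Gabpa was above the floor in knockout only.

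Glycolysis, the pathway that makes ATP in the cytosol, had a median of 0.12 over 15 genes, 4 below 0 and 11 above. The glucose transporter Slc2a1 was past 2-fold, at 1063 in knockout and 456 in wildtype (1.22), and lactate dehydrogenase Ldha read 15659.9 and 14379 (0.12). Hk1, the hexokinase that docks on mitochondria, stood at -0.46. On the second type these 7 lists held 4 to 10 genes each except for 2 carriers and 3 glycolysis genes. The 1 gene past 2-fold there was Cox11, a copper chaperone of complex IV assembly, at 158 and 403 (-1.35). Of all genes on the second type, 1.67% were at least 2-fold higher and 2.12% lower.

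**Figure D4:**
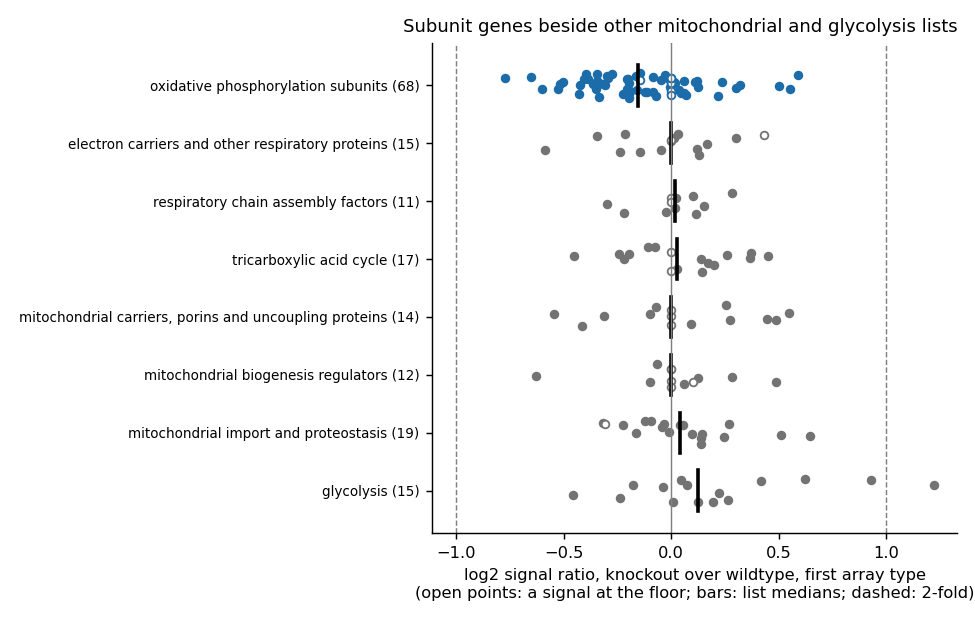
Log2 ratio of knockout over wildtype on the first array type for the subunit genes (blue) and 7 related lists (grey), open where a signal lies at the floor, with a bar at each list's median. The subunit median of -0.15 lies to the left of the other list medians, which run from 0.00 to 0.12, and Slc2a1 is the 1 gene beyond 2-fold. The lists also differ in signal.

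The side of 0 depends on how the arrays are scaled, while the distance to other genes depends on it less. On 9 bacterial spike-in probe sets the knockout array read lower, with a mean log2 ratio of -0.69 on the first type. Scaled on them, the 61 measured subunit genes had a median of 0.49 and all measured genes of 0.70. Over the 11 alternatives of scaling, floor and value per gene, the median of measured subunit genes minus that of all measured genes on the first type stayed between -0.24 and -0.13, and it was -0.22 in the setting used above. The smallest distance came with quantile normalization, and loess on signal gave -0.14.

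**Figure D5:**
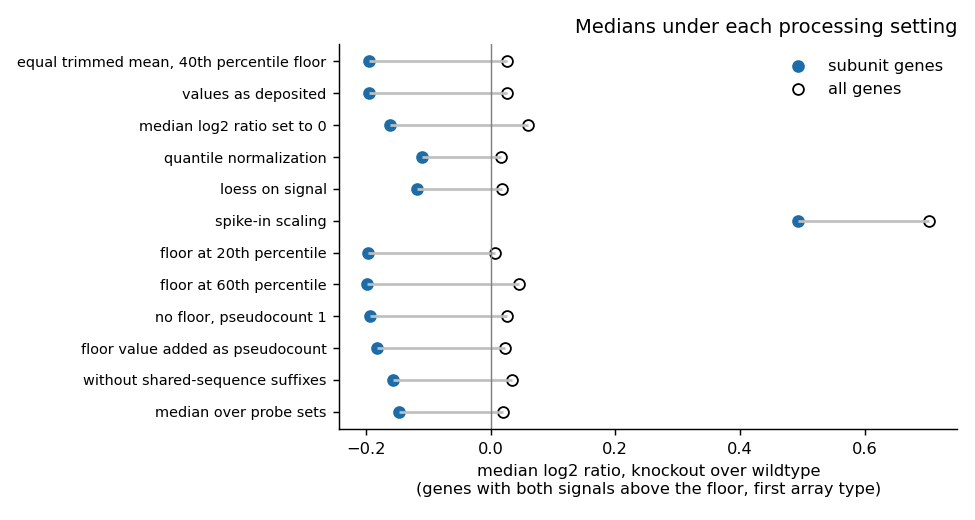
Median log2 ratio on the first array type of subunit genes (filled) and all genes (open) with both signals above the floor, under the setting used and 11 alternatives. The filled point lies left of the open one in each, and both lie above 0 under spike-in scaling alone.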

How the data were processed

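The values are the authors' deposited array intensity values, 1 MAS5 signal per probe set and array, per the submitters' processing notes. Its version and scaling target are not stated in the labels. The number of arrays limits the precision. Both arrays of each type were brought to the same 2% trimmed mean, the 66 control probe sets per type were kept out of the genes, and the floor was the mean of the 2 arrays' 40th percentiles. Genes took the platform annotation's symbol from probe sets with 1 gene and the value of the probe set with the highest mean signal. Calls were a rule of size, 2-fold or 1.5-fold. For genes on both types with a mean log2 signal above each floor, limma 3.58.1 in R 4.3.3 (lmFit, eBayes, Benjamini-Hochberg) compared genotypes with the array type as a block, after a test on simulated data. Other steps ran in Python 3.11.15. The rule for naming genes took, per type, the 2 of highest signal in each complex, the 3 highest and 3 lowest measured ratios, subunit genes past 2-fold, genes on both types, tissue isoforms, and list members past 2-fold or else the 2 of highest signal; genes named beyond it were chosen after their values were seen. Members and lists were chosen with earlier results of these data known, and the motif letters were shortened after a first search with longer forms. Alternatives were 5 scalings, 4 floors, probe sets without shared-sequence suffixes, the median over probe sets, and no block.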

Additional observations from a re-analysis of the deposited data

How the results depend on the processing

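Spike-in scaling turned the first-type medians of the subunit genes to 0.49, of complex I to 0.49, of complex III to 0.39, of complex IV to 0.33 and of complex V to 0.47, left 1.47% of subunit genes below 0, and put 4 past 2-fold higher. On the second type it gave a median of 0.27, 0.00% below 0, 1 gene past 2-fold higher and a complex II median of 0.18. The other alternatives kept the first-type median between -0.20 and -0.07. The rule of 1.5-fold gave 1 higher and 3 lower on that type. The second-type median of 0.00 became -0.14 under a floor at the 20th percentile, -0.14 with no floor and -0.13 when the floor was a pseudocount, and the share below 0 went from 33.3% to 55.6%, 66.7% and 66.7%, or 22.2% under a floor at the 60th percentile. By construction the floor decides how many dim genes have a ratio other than 0. No subunit gene passed limma's adjusted p under any scaling or floor it was run with, or without the block, while the calls among all genes went from 1 to 10 under loess, to 6 under the higher floor and to 0 under 6 of the others. Spike-in scaling was not run with limma. The median of the mean ratios of the genes on both types was -0.11, and between -0.14 and -0.08 when either replicate's array type was left out, a value with no test. The labels give no replicate numbers, and the pairing used is that of the array type, whose block sets each knockout array against the wildtype array of its type. With 1 array per genotype and type, no array could be left out within a type.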
